A study of Mus musculus with 10 samples.

Results

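The EGF family of growth factors and the ERBB receptors that they bind were measured in mouse pancreatic tumours of separate hosts, without or with doxycycline. The set holds 10 genes: the 7 ligands Areg, Ereg, Hbegf, Tgfa, Btc, Epgn and Nrg1, and the 3 receptors Egfr, Erbb2 and Erbb3. They were chosen by name, with earlier results of these data known. All 10 were found among the 23924 usable gene symbols of each of 2 expression tables, 1 for KrasT and 1 for MycT tumours. Total RNA was taken from pancreatic grafts in athymic nude mice, whose missing thymus leaves them short of T cells but not of other immune cells, so a value combines tumour cells with host cells of the piece. Untreated mice (0 days of doxycycline in the labels) carried 3 KrasT and 2 MycT tumours. Treated mice, with 3 KrasT and 2 MycT tumours, were given 100 ug/ml of doxycycline with 2.5% sucrose over 14 days. Doxycycline switches tetracycline-controlled transgenes, but the labels do not give the construction of the KrasT and MycT transgenes, the tumour line behind each graft or a sucrose control. Effects of sucrose, of the drug itself and of the transgene cannot be told apart. The labels give each tumour its own number but do not say whether the tumours of a model share a parent line, so the p-values may measure spread within 1 line.

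EGF family ligands are made as membrane proteins, and proteases of the ADAM family cut them free. They bind ERBB receptors, which pair on the cell surface and signal through RAS and ERK and through PI3 kinase. Areg, Tgfa and Epgn bind EGFR, Hbegf, Btc and Ereg bind EGFR and ERBB4, and Nrg1 binds ERBB3 and ERBB4. ERBB2 has no known ligand of its own, and ERBB3 has a weak kinase and signals through its partners. In the pancreas, EGFR and its ligands are known for their part in the change of acinar cells to duct-like cells.

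Epgn, Ereg, Areg and Btc lie next to each other on mouse chromosome 5, in that order, with no other protein-coding gene of the RefSeq table between them. Hbegf, Tgfa and Nrg1 lie on chromosomes 18, 6 and 8. Promoter sequence was matched in RefSeq (GRCm38.p6) for 6 of the 10 members, and the 250 bases before the start of Areg and Btc are shown because these neighbours both fell in KrasT tumours. The Areg window is chr5:91139349-91139598 on the plus strand and the Btc window is chr5:91402995-91403244 on the minus strand. Both are written 5′ to 3′ along the gene, and capitals mark the motifs found.
Areg: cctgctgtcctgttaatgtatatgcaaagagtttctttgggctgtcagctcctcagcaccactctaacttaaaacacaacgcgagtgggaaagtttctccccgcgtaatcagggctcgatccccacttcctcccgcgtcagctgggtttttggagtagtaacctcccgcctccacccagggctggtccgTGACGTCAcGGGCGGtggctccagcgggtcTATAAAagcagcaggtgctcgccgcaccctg
Btc: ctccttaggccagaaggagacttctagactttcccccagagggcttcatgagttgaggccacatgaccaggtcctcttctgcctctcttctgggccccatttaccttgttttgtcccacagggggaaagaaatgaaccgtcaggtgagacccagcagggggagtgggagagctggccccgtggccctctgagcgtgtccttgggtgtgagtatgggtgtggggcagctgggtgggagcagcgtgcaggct
The Areg window holds a cyclic AMP response element (TGACGTCA) that begins 61 bases before the start, a GC box (GGGCGG) at 52 bases and a TATA motif (TATAAA) at 31 bases. These 3 matches do not overlap. Both strands were searched, and 1.55%, 32.7% and 12.4% of the 32851 RefSeq promoter windows of this length hold these motifs. The Btc window has none of the 7 motifs searched, which also included AP-1 (TGANTCA), the E-box (CACGTG), an ETS motif (CCGGAAGT) and the CArG box. A GC box was also found in the windows of Tgfa (at 126 and 15 bases) and Egfr (at 9 bases), and a TATA motif in that of Epgn (at 86 bases). These matches describe letters only.

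Expression was given as FPKM, which scales fragments to gene length and library size, so levels of different genes can be set side by side. Read totals are unknown. Low values differ in steps, and from these the KrasT libraries had 0.756 to 1.188 of the depth of untreated replicate 1, and the MycT libraries 0.671 to 1.08 of that of an untreated one. The FPKM of all genes added up to 789672 to 1018968 in untreated and 513949 to 569272 in doxycycline KrasT libraries, and 1126800 to 1517332 against 546008 to 557227 in MycT. Epithelial markers were found in all 10 libraries, as a pancreatic carcinoma would have, but untreated KrasT replicate 1 stood apart from its group. Its Epcam, an epithelial adhesion protein, was at 7.22 FPKM, against 375 and 530.2 FPKM in replicates 2 and 3, and its Cdh1, which codes for E-cadherin, at 4.67 against 370.1 and 291 FPKM. Of the 12 epithelial markers 11 were lowest in it within its group, and Sox9 was highest, at 21.4 against 20.6 and 12.5 FPKM. Some epithelial transcripts stayed high in it: Krt18 at 1497 FPKM was above every doxycycline KrasT value (84.2 to 542.5 FPKM). The 12 markers summed to 5341 FPKM, within the range of the doxycycline KrasT libraries, but the secreted protein gene Spp1 alone gave 2961 FPKM of this. Epcam, Cdh1, Krt7, Cldn4, Cldn7, Muc1 and Elf3 were each below every doxycycline KrasT value, such as Muc1 at 1.48 against 7.80 to 166.6 FPKM. The correlation of this library across genes with the other untreated KrasT libraries was 0.911 and 0.920, against 0.982 between those. In MycT, untreated replicate 2 had a sum of 37.0 FPKM over 9 fibroblast markers, against 453.3 FPKM in the other untreated library. Its 12 epithelial markers summed to 577.2 FPKM, against 2340 FPKM in the other library, and its 6 squamous markers to 0.296 against 173.6 FPKM. Acinar markers were higher in replicate 2, at 270.6 FPKM against 85.7 FPKM in the other library. That other library, called unnumbered below, has a column number found in no label, and its column name gives only its group. Doxycycline replicate 1 of KrasT and replicate 2 of MycT had the ribosomal RNA precursor Rn45s at 17238 and 20880 FPKM, against at most 2231 FPKM elsewhere. Epcam, Cdh1, Sox9, Krt7, Cldn4, Cldn7, Muc1, Elf3 and, below, Sox10 were chosen after their values were seen.

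The first comparison asks how the ligands and receptors differ between untreated and doxycycline KrasT tumours. Areg, Hbegf, Ereg and Btc fell, and Areg had the lowest log2 change of all 12696 genes tested. No member rose. Of the 10 members 4 were lower, 0 higher and 5 did not pass, and Epgn was too low to be tested. A gene was called at a limma adjusted p under 0.05, and 16.7% of all genes tested were called, 8.25% as lower and 8.46% as higher. The same 4 had an unadjusted p under 0.05, beside 34% of genes. In a fit of all 10 libraries, which tests 7 members and not Ereg, 3 members were called as lower, beside 9.09% of genes lower and 7.94% higher. Areg and Ereg passed the minimum level of 1 FPKM in 3 libraries through their untreated values alone. With every detected gene kept, 4 of all 10 members were again called as lower, beside 4.55% of 18880 genes, and the median log2 change was -1.68 over the members and 0.02 over all genes. Untreated and doxycycline values did not overlap for 6 of the 10 members, all lower after doxycycline, beside 23% of the genes tested. These 6 include Epgn, which was not tested.

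Areg codes for amphiregulin, an EGFR ligand. It was at 47.7, 181.3 and 91.1 FPKM in the untreated KrasT tumours and at 0.433, 0.477 and 0.217 FPKM in the doxycycline tumours. Every doxycycline value was under 1 FPKM and far below the lowest untreated value, that of replicate 1. The means were 106.7 ± 68.1 and 0.375 ± 0.139 FPKM (SD, n = 3 each). The log2 change was -6.09 ± 0.48 (SE; limma adjusted p = 0.00269). Here and throughout, log2 changes were computed after adding 1 to each FPKM, and are too small for low genes. Areg was called in each of the 6 fits that left out 1 KrasT library, with adjusted p from 0.000774 to 0.0304.

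Hbegf codes for heparin-binding EGF-like growth factor, and it was the ligand of highest mean level in untreated KrasT tumours. Its values were 82.1, 187.9 and 175.8 FPKM untreated and 4.70, 16.0 and 12.5 FPKM after doxycycline. The groups did not overlap, and unlike Areg no Hbegf value was under 1 FPKM. The log2 change was -3.68 ± 0.51 (SE; limma adjusted p = 0.0105).

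Ereg codes for epiregulin and is the gene next to Areg. It was at 5.74, 22.5 and 25.0 FPKM in untreated tumours, against 0.401, 0.225 and 0.224 FPKM with doxycycline. The lowest untreated value, that of replicate 1, was still above every doxycycline value. Its log2 change was -3.65 ± 0.53 (SE; limma adjusted p = 0.0121).

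Btc codes for betacellulin, which is named after the beta cell line it was found in. Btc was at 23.7, 50.2 and 37.6 FPKM in untreated tumours, against 0.917, 5.15 and 2.35 FPKM with doxycycline, again without overlap. The fall was -3.42 ± 0.49 on the log2 scale (SE; limma adjusted p = 0.0115). The calls of Hbegf, Ereg and Btc were each lost without untreated replicate 2 (adjusted p = 0.0522, 0.0539 and 0.0528), untreated replicate 3 (0.0648, 0.0631 and 0.0658) or doxycycline replicate 3 (0.0616, 0.0716 and 0.0685). In these fits the limma changes stayed between -3.83 and -3.18, and Areg was the member still called.

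**Figure D1:**
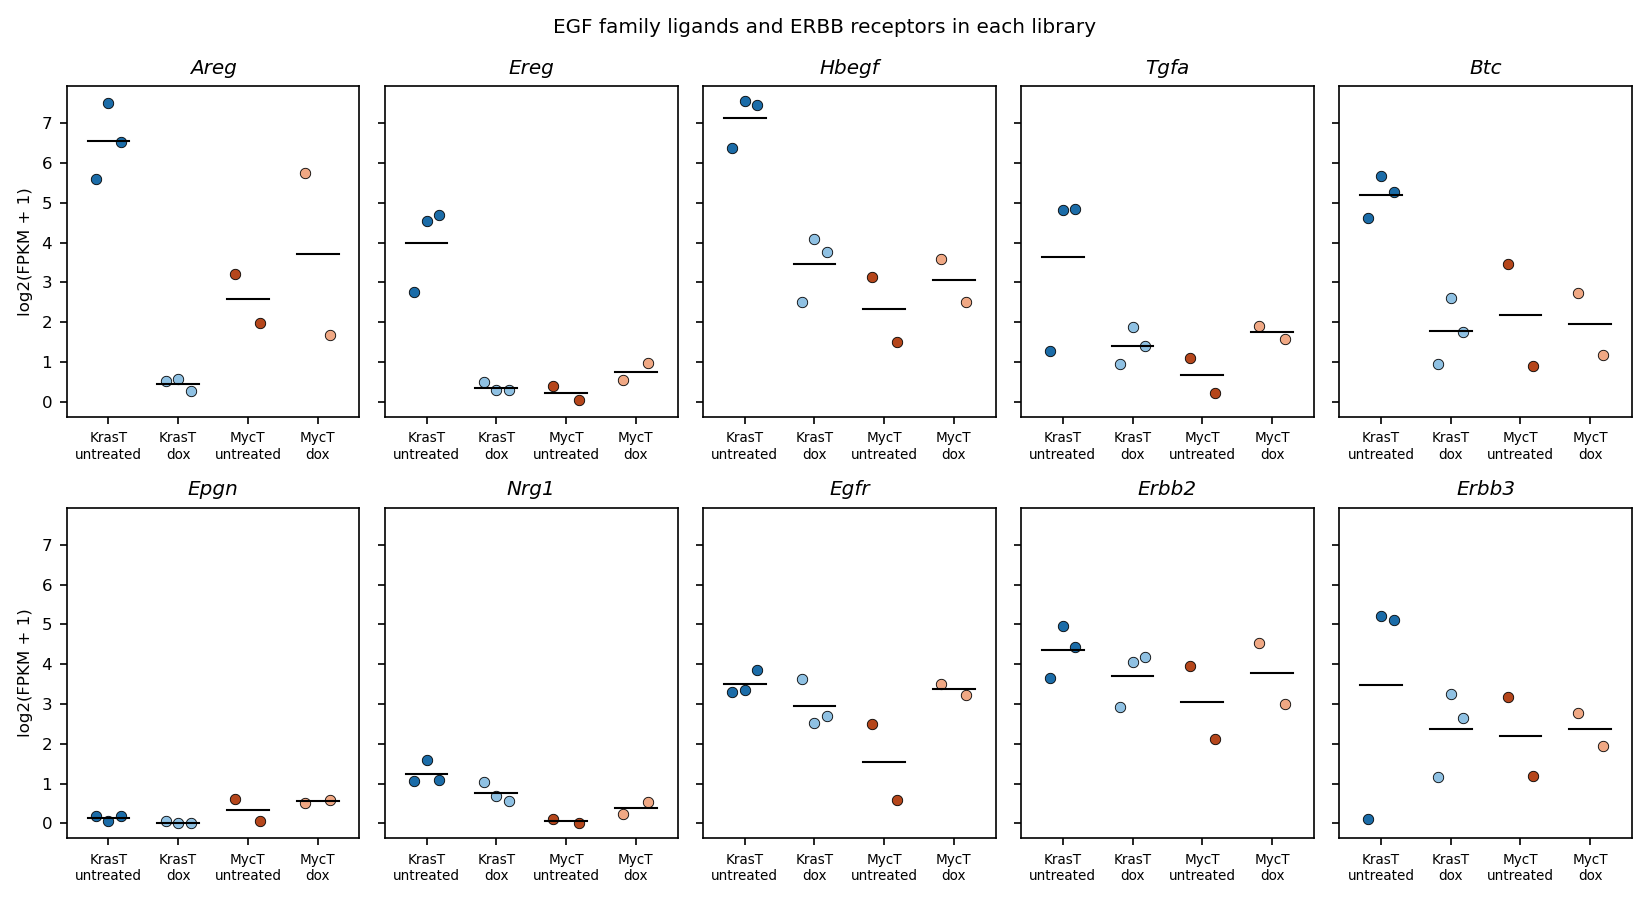
Level of each member in each library, as log2(FPKM + 1) on the y axis, by group on the x axis; a point is 1 library and a bar the group mean. Areg in KrasT lies at 47.7 to 181.3 FPKM untreated and at 0.217 to 0.477 FPKM after doxycycline, and untreated KrasT replicate 1, the leftmost point of its group, is the low point for Tgfa and Erbb3.

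Tgfa, which codes for transforming growth factor alpha, differed among the untreated tumours. It was at 27.4 and 27.6 FPKM in untreated replicates 2 and 3 but at 1.42 FPKM in replicate 1, against 0.941, 2.66 and 1.62 FPKM after doxycycline. Replicate 1 thus lay within the range of the doxycycline group. Tgfa did not pass the test (log2 change -2.24 ± 0.95 SE, limma adjusted p = 0.150). Without untreated replicate 1 it did, with a change of -3.43 and a limma adjusted p of 0.00239.

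Nrg1, the neuregulin that binds ERBB3, was low throughout. It had 1.10, 1.99 and 1.13 FPKM untreated and 1.05, 0.599 and 0.484 FPKM after doxycycline. The groups were apart by a small step, and the change of -0.48 ± 0.26 (SE) did not pass (limma adjusted p = 0.242). Epgn, which codes for epigen, was at 0.138, 0.0457 and 0.133 FPKM untreated, and after doxycycline it was listed at 0.0415 FPKM in replicate 1 and at 0 in the others. At such levels no change can be read.

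The receptors did not pass the test in KrasT. Egfr was at 8.94, 9.28 and 13.5 FPKM in untreated tumours, against 11.3, 4.71 and 5.49 FPKM with doxycycline, and the groups overlapped through doxycycline replicate 1. Its log2 change was -0.56 ± 0.37 (SE; limma adjusted p = 0.328). In that replicate fibroblast markers summed to 9267 FPKM, against 4031 and 3991 FPKM in the other doxycycline libraries, and 6 adipocyte markers to 2004 FPKM, against 147.4 and 129.7. The part of these cells in the Egfr value was not tested. Erbb2 had 11.5, 30.2 and 20.5 FPKM untreated and 6.55, 15.5 and 17.1 FPKM after doxycycline (log2 change -0.63 ± 0.47 SE, limma adjusted p = 0.389).

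Erbb3 spread widely within the untreated group. It was at 36.2 and 33.6 FPKM in untreated replicates 2 and 3 and at 0.0688 FPKM in replicate 1, against 1.26, 8.58 and 5.32 FPKM after doxycycline. The untreated library poor in Epcam was therefore the lowest of all 10 libraries for Erbb3. The log2 change was -1.11 ± 1.39 (SE; limma adjusted p = 0.614). Without untreated replicate 1 it was -2.80, with a limma adjusted p of 0.0177. Schwann cells also use ERBB3. Their 7 markers summed to 3.98 to 20.8 FPKM in untreated and 22.8 to 33.8 FPKM in doxycycline KrasT libraries, with 0 of 3 tested called by limma (2 at an unadjusted p under 0.05), and Sox10, their defining transcription factor, was at most 0.263 FPKM. Their part in the Erbb3 values was not tested.

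The 3 libraries with the lowest Epcam were also the 3 with the lowest Erbb3, in the same order, which was not so for Areg or Hbegf. In untreated replicate 1 of KrasT, Areg, Hbegf and Btc stayed at 47.7, 82.1 and 23.7 FPKM beside an Epcam of 7.22 FPKM. In doxycycline replicate 2 the Epcam level was 215 FPKM beside an Areg of 0.477 FPKM. Of the 12 epithelial markers, 2 were called as lower in KrasT, Krt8 and Krt18, the paired keratins of simple epithelia, with log2 changes of -3.09 and -3.60 (limma adjusted p = 0.0444 and 0.0318). The summed epithelial markers were 5341, 23563 and 13740.2 FPKM untreated and 4511, 7543 and 5429 FPKM after doxycycline. Called as higher were 8 of 9 fibroblast, 5 of 6 endothelial and 2 of 6 macrophage markers. So were 2 of 6 islet, 2 of 4 tested mesothelial and 1 of 4 tested adipocyte markers. No tested acinar, skeletal muscle or Schwann cell marker was called. Of all genes tested, 8.46% were called as higher and 8.25% as lower. Markers of other tissues differed among the doxycycline libraries: islet markers summed to 7472 FPKM in replicate 1, skeletal muscle markers to 5318 FPKM in replicate 2 and acinar markers to 13989 FPKM in replicate 3. The part of these cells in the falls of Areg, Hbegf, Ereg and Btc was not tested. A sum over 8 genes that nearly all cells use was itself 21061 to 24307 FPKM untreated and 7707 to 8924 FPKM with doxycycline, and limma called 5 of these 8 as lower. In whole tissue, fewer tumour cells and less of a transcript per tumour cell cannot be told apart.

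**Figure D2:**
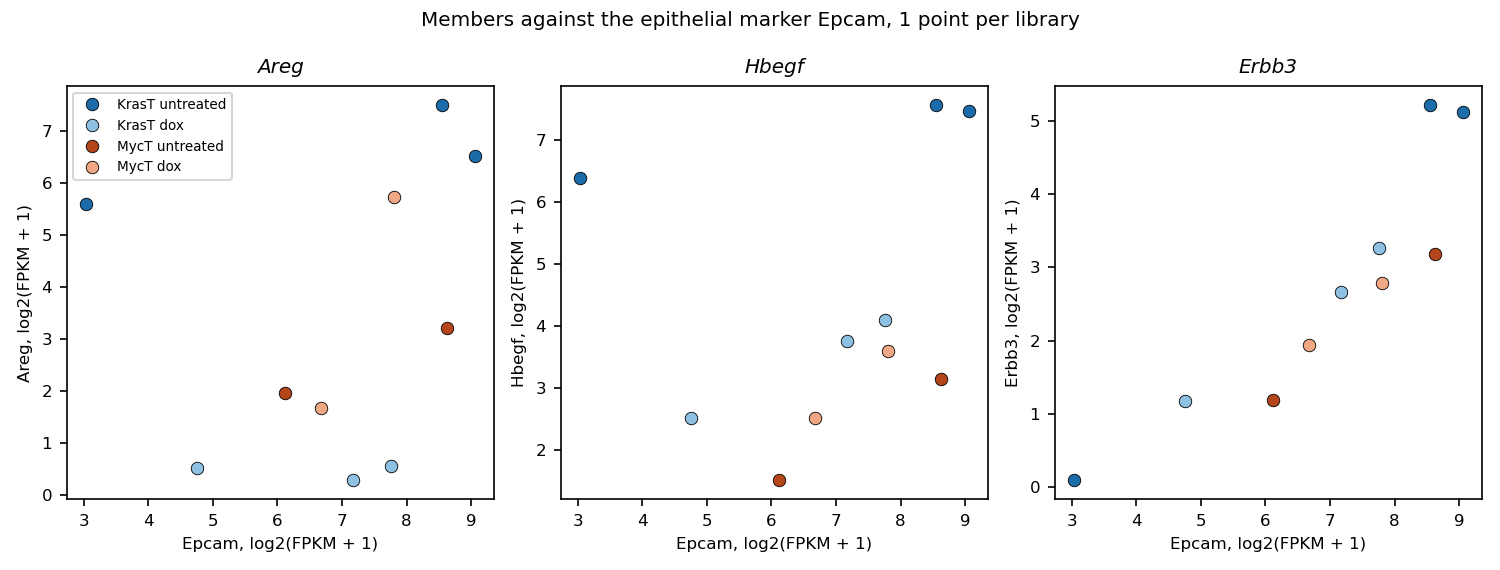
Areg, Hbegf and Erbb3 on the y axes against the epithelial marker Epcam on the x axes, all as log2(FPKM + 1), with 1 point per library coloured by group. Untreated KrasT replicate 1, at the far left with 7.22 FPKM of Epcam, has 82.1 FPKM of Hbegf but 0.0688 FPKM of Erbb3.

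Ratios to epithelial markers were formed as a description, after the values had been seen. Areg per FPKM of Krt18 was 0.0319, 0.0289 and 0.0240 in untreated KrasT tumours and 0.00514, 0.000879 and 0.000497 after doxycycline. Areg was thus lower also relative to this keratin, without overlap. Hbegf per FPKM of Krt18 was 0.0548, 0.0299 and 0.0462 untreated and 0.0559, 0.0296 and 0.0287 after doxycycline, and these ranges overlapped. Btc per Krt18 overlapped as well, with 0.0158, 0.00800 and 0.00988 against 0.0109, 0.00950 and 0.00540. Per FPKM of Epcam, however, Areg, Ereg, Hbegf, Tgfa and Btc were each lower in every doxycycline library than in every untreated one. For Hbegf that ratio was 11.4, 0.502 and 0.332 untreated and 0.180, 0.0746 and 0.0874 after doxycycline. The value of 11.4 is that of untreated replicate 1, which had only 7.22 FPKM of Epcam. Ereg and Tgfa per Krt18 overlapped too. Krt18 itself fell, from a mean of 3858 to 354.3 FPKM, which raises every ratio to it after doxycycline. Nrg1, Egfr, Erbb2 and Erbb3 per Krt18 were each higher in every doxycycline library than in every untreated one. Per FPKM of the 12 summed epithelial markers, Areg, Ereg, Hbegf and Btc were lower without overlap and Tgfa overlapped. After doxycycline this sum was mostly Spp1, at 4209, 5604 and 3783 FPKM of 4511, 7543 and 5429 FPKM. Spp1 did not fall, with means of 3770 FPKM untreated and 4532 FPKM after doxycycline. Areg was the one of these 5 ligands that was lower without overlap on all 3 scales in KrasT. In MycT, Areg and Btc per Epcam overlapped, and every other member was higher per Epcam in both doxycycline libraries than in both untreated ones. Tgfa, Nrg1 and Egfr were so on the other scales as well, while Hbegf and Erbb3 per summed markers were lower without overlap.

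The untreated and doxycycline tumours also differed in the makeup of the ligand sum. The 7 ligands summed to 161.9, 471.3 and 358.4 FPKM in untreated KrasT tumours and to 8.49, 25.2 and 17.4 FPKM after doxycycline. The 3 receptors summed to 20.5, 75.6 and 67.6 FPKM and to 19.2, 28.8 and 27.9 FPKM. The ratio of ligand to receptor sums was 7.88, 6.23 and 5.30 untreated and 0.443, 0.872 and 0.623 after doxycycline. Areg made up 29.5%, 38.5% and 25.4% of the ligand sum untreated and 5.10%, 1.90% and 1.25% after doxycycline. Hbegf made up 50.7%, 39.9% and 49.0% and then 55.4%, 63.8% and 71.8%. In order of mean level, untreated KrasT tumours had Hbegf (148.6 ± 57.9 FPKM), Areg (106.7 ± 68.1), Btc (37.1 ± 13.3), Tgfa (18.8 ± 15.1) and Ereg (17.7 ± 10.5), all SD with n = 3. The means of Hbegf and Areg differed by less than either SD, though Hbegf was higher in each of the 3 libraries. Btc was above Tgfa and Ereg in each of the 3, and the means of Tgfa and Ereg differed by less than either SD. After doxycycline the order was Hbegf, Btc, Tgfa, Nrg1, Areg, Ereg and Epgn, with 11.1 ± 5.80 FPKM for Hbegf and 2.81 ± 2.15 FPKM for Btc (SD, n = 3).

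**Figure D3:**
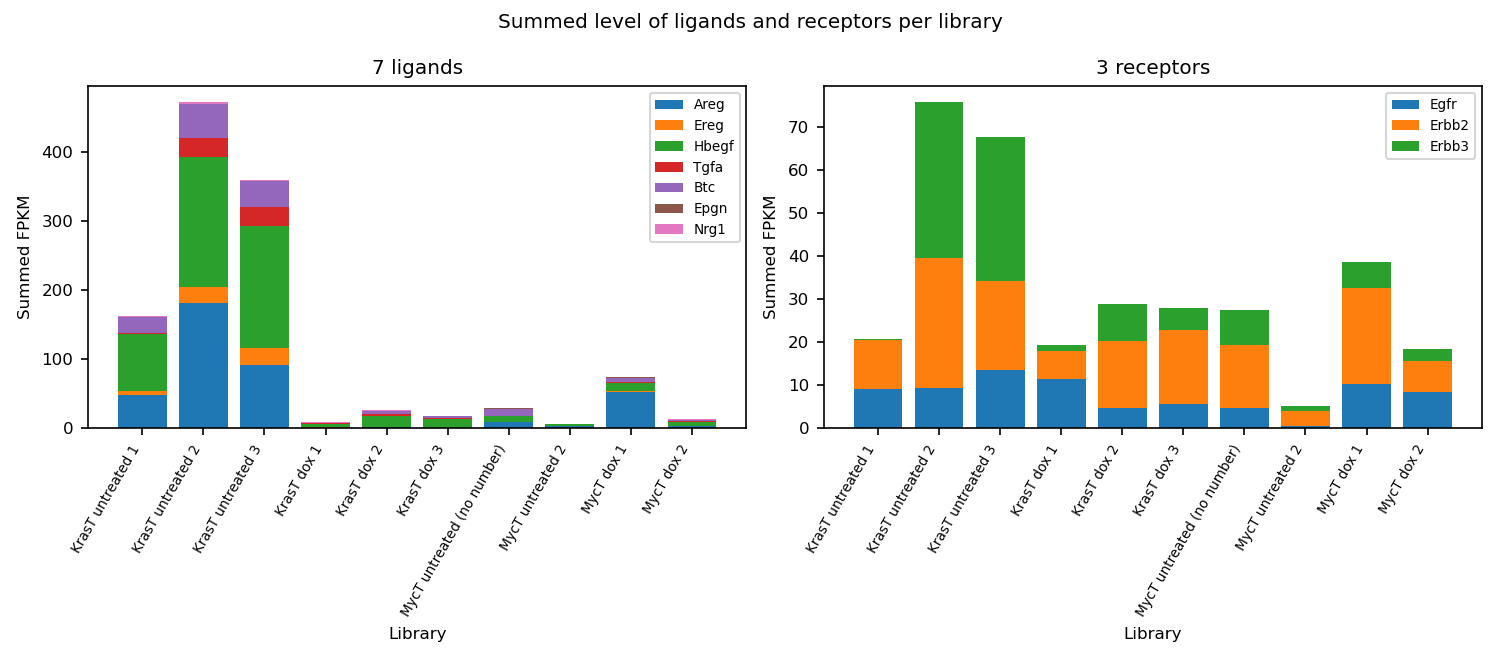
Summed FPKM of the 7 ligands (left) and the 3 receptors (right) on the y axes, with 1 bar per library on the x axis stacked by gene. The untreated KrasT bars reach 161.9 to 471.3 FPKM for ligands, above all other libraries, while receptor sums of the KrasT groups lie closer, at 20.5 to 75.6 FPKM untreated and 19.2 to 28.8 FPKM after doxycycline.

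The second comparison put the same question to MycT tumours. No member passed the limma test there, with the lowest adjusted p = 0.154 for Egfr. Of the 7 members tested 0 were called, and 0 had an unadjusted p under 0.05, beside 0.039% (0.00779% higher, 0.0312% lower) and 33.4% of 12834 genes. Ereg, Epgn and Nrg1 were too low to be tested. A limma fit of all 10 libraries, which shares 1 estimate of the spread, also called 0 of these 7 in MycT, where it called 8.11% of genes as higher and 12.3% as lower. With 2 libraries against 2, a change that misses the threshold is not shown to be absent.

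Egfr had the largest MycT change of the set. It was at 4.67 FPKM in the unnumbered untreated library and 0.489 FPKM in replicate 2, against 10.3 and 8.42 FPKM after doxycycline. Both doxycycline values were above both untreated ones. The log2 change was 1.83 ± 0.71 (SE), with limma adjusted p of 0.154 in the MycT fit and 0.0615 in the fit of all libraries. Summed fibroblast markers were higher as well, at 453.3 and 37.0 against 1695 and 2454 FPKM. Their part in the Egfr values was not tested. Tgfa also stood higher without overlap, with 1.15 and 0.167 FPKM untreated and 2.75 and 2.01 FPKM after doxycycline (1.08 ± 0.44 SE, limma adjusted p = 0.166). Groups did not overlap for 4 of the 10 members, Ereg, Tgfa, Nrg1 and Egfr, all higher after doxycycline. Ereg and Nrg1 were not tested, so only Tgfa and Egfr, of the 7 tested, stand beside the 31.9% of the genes tested.

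Areg differed more between the doxycycline MycT tumours than between the groups. It was at 8.29 FPKM in the unnumbered library and 2.92 FPKM in untreated replicate 2, and at 52.6 and 2.19 FPKM in doxycycline replicates 1 and 2. Its log2 change of 1.11 ± 1.42 (SE) turned to -0.92 without doxycycline replicate 1 (limma adjusted p = 0.618 and 0.600). That replicate also had the highest sum of 6 squamous epithelial markers, 1222 FPKM, against 540.4 FPKM in doxycycline replicate 2 and 173.6 and 0.296 FPKM untreated. Krt14, a keratin of basal and squamous cells, was at 769, 347.3, 99.0 and 0.185 FPKM in these libraries in the same order. It further had 6423 FPKM over 6 skeletal muscle markers, against at most 8.83 FPKM in the other MycT libraries. The part of these cells in the Areg value was not tested.

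Hbegf and Btc overlapped between the MycT groups. Hbegf was at 7.82 and 1.86 FPKM in untreated tumours, against 11.1 and 4.73 FPKM with doxycycline (0.73 ± 0.71 SE, limma adjusted p = 0.512). Btc was at 9.99 and 0.880 and then 5.60 and 1.25 FPKM (-0.24 ± 1.02 SE, limma adjusted p = 0.896). Untreated replicate 2 was the lower untreated library for all 10 members. Its Epcam was 68.3 FPKM, against 392.1 FPKM in the unnumbered library. Ereg was at 0.313, 0.0341, 0.463 and 0.961 FPKM in the 4 libraries, Epgn at 0.534, 0.0449, 0.424 and 0.506 FPKM, and Nrg1 at 0.0765, 0, 0.167 and 0.456 FPKM.

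The other MycT receptors overlapped as well. Erbb2 was at 14.5 and 3.37 FPKM untreated and 22.3 and 7.02 FPKM after doxycycline (0.73 ± 0.84 SE, limma adjusted p = 0.577). Erbb3 was at 8.11 and 1.28 and then 5.89 and 2.83 FPKM (0.17 ± 0.77 SE, limma adjusted p = 0.901). The ratio of ligand to receptor sums was 1.03 and 1.15 untreated and 1.90 and 0.663 after doxycycline. The tables were made separately, so levels were not tested across them. Side by side, all untreated KrasT values of Areg, Hbegf, Ereg and Btc were above both untreated MycT values, while Egfr at 8.94 to 13.5 FPKM in KrasT faced 0.489 and 4.67 FPKM.

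**Figure D4:**
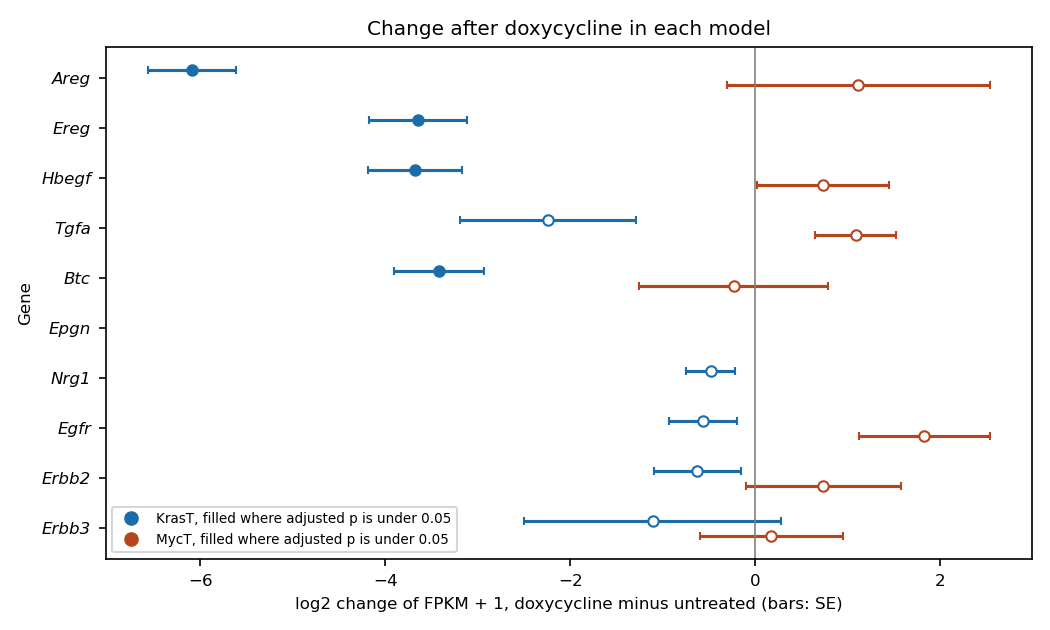
Log2 change of FPKM + 1 after doxycycline on the x axis, for each member tested on the y axis, in KrasT (blue) and MycT (orange); bars are the SE and filled points have a limma adjusted p under 0.05. Areg (-6.09), Hbegf (-3.68), Ereg (-3.65) and Btc (-3.42) in KrasT are filled, and no MycT point is.

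The third comparison tested whether the doxycycline change differs between the models, as the interaction term of a limma fit over all 10 libraries. All 7 members tested had a more negative change in KrasT than in MycT, and none passed. Their median difference was -3.19, against 0.007 over all genes tested. The 12 epithelial markers were likewise all more negative in KrasT, with a median of -3.35 and 0 called, so this direction was not particular to the members. Areg differed by -7.21 ± 1.45 (SE, limma adjusted p = 0.0689) and Hbegf by -4.41 ± 0.93 (limma adjusted p = 0.0704). For Egfr the difference was -2.39 ± 0.78, for Btc -3.19 ± 1.13 and for Tgfa -3.33 ± 1.35, with limma adjusted p of 0.145, 0.170 and 0.216. Erbb2 (-1.36 ± 0.98) and Erbb3 (-1.28 ± 2.03) had limma adjusted p of 0.474 and 0.769. An unadjusted p under 0.05 was reached by 5 of the 7, beside 19.9% of 12073 genes, and 0 of 7 were called, beside 0.24% (0.199% more negative in KrasT, 0.0414% more positive). Without untreated KrasT replicate 1, limma called Areg (adjusted p = 0.0213), Hbegf (0.0200) and Tgfa (0.0101). Without the unnumbered untreated MycT library it called Areg (0.0481), Hbegf (0.0303) and Egfr (0.0320).

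Other members of the family were scarce. Egf was at most 0.660 FPKM in KrasT and 0.972 FPKM in MycT, Nrg2 and Erbb4 at most 0.218 FPKM, and Nrg3 was listed at 0 in all 10 libraries. Nrg4, an ERBB4 ligand, was at 0.512, 4.46 and 2.25 FPKM untreated and 3.26, 3.95 and 3.19 FPKM after doxycycline in KrasT (limma adjusted p = 0.431). ERBB4, the receptor that Nrg4 binds, had Erbb4 at 0 in all untreated KrasT libraries and at 0.0109 to 0.218 FPKM after doxycycline.

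Genes of ligand release moved in both directions in KrasT. Of 13 genes 3 fell and 1 rose, beside 8.25% and 8.46% of all genes, with a median of 0.08 against -0.10 over all genes. Adam10, a protease that frees betacellulin among others, fell from 78.9, 78.8 and 66.5 to 32.5, 28.6 and 25.9 FPKM (-1.34 ± 0.22 SE, limma adjusted p = 0.0155). Adam9 fell by 2.12 and Frmd8, which codes for a partner of the iRhom proteins that guide ADAM17, by 1.32 on the log2 scale (limma adjusted p = 0.0362 and 0.0419). Adam17, the main protease for amphiregulin and TGF-alpha, was at 8.45 to 13.2 FPKM in untreated tumours and at 11.7 to 19.5 FPKM with doxycycline, which overlap, and did not pass (limma adjusted p = 0.498). Adam17 falls outside the naming rule and was chosen after its values were seen. Timp3, an inhibitor of ADAM17 and matrix proteases, rose from 21.5, 6.84 and 8.53 to 178.4, 101.6 and 136.9 FPKM (3.52 ± 0.44 SE, limma adjusted p = 0.00956). Stromal cells also make TIMP3, and summed fibroblast markers were at 327.5 to 718.1 FPKM untreated and at 3991 to 9267 FPKM with doxycycline. Their part in the Timp3 values was not tested. In MycT 0 of the 13 passed in limma, with a median of 0.87 against 0.04 over all genes. An unadjusted p under 0.05 was reached by 5, beside 33.4% of all genes, and the fit of all libraries called 1, beside 8.11% higher and 12.3% lower.

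At the receptor, 4 of 25 adaptors and enzymes rose in KrasT and 2 fell, beside 8.46% and 8.25% of all genes, with a median of 0.00. Grb10, an adaptor that also binds the insulin and IGF1 receptors, rose from between 1.46 and 2.78 FPKM to between 13.4 and 21.9 FPKM (2.76 ± 0.32 SE, limma adjusted p = 0.00753). Pik3r1, the regulatory subunit of PI3 kinase, rose from 4.46, 5.01 and 4.59 to 29.7, 16.8 and 21.3 FPKM (2.02 ± 0.28 SE, limma adjusted p = 0.0108). Grb14 rose by 1.72 on the log2 scale (limma adjusted p = 0.0280). The adaptor Nck2 fell by 1.28 on the log2 scale (limma adjusted p = 0.0294). In MycT 0 of the 25 passed in limma, with a median of 0.47, while 6 had an unadjusted p under 0.05, beside 33.4%, and 4 were called in the fit of all libraries, beside 8.11% and 12.3%.

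Among 20 genes that restrain or turn over the receptors, 3 fell and 0 rose in KrasT, beside 8.25% and 8.46% of all genes, with a median of -0.43. Spry2, a feedback inhibitor of receptor signalling, fell from 30.2, 46.7 and 32.8 to 8.10, 15.6 and 9.60 FPKM (-1.66 ± 0.32 SE, limma adjusted p = 0.0218). The phosphatase gene Ptpn12 fell by 1.33 and Stam, of the sorting machinery for internalised receptors, by 1.09 on the log2 scale (limma adjusted p = 0.0222 and 0.0406). In MycT 0 of 19 tested genes passed in limma, with a median of 0.74, while 7 had an unadjusted p under 0.05 and 2 were called in the fit of all libraries, beside 33.4% of all genes and 8.11% higher and 12.3% lower. The calls named in these 3 lists held in 1 to 4 of the 6 fits that left out 1 KrasT library. Relative to a total without ribosomal protein genes and Rn45s, which put the median log2 change of all KrasT genes at 0.39 in place of -0.10, the calls of Adam9, Frmd8, Nck2, Spry2, Ptpn12 and Stam were lost, and those of the 4 ligands held. Adam9 and Frmd8 were also lost under quantile normalization and with no filter (limma adjusted p = 0.0544 to 0.105), and Grb14, Nck2, Ptpn12 and Stam under quantile normalization (limma adjusted p = 0.0590 to 0.102).

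Genes with the most similar pattern were sought among 8581 genes as those with the highest Pearson r of log2(FPKM + 1) over the 10 libraries. These libraries share 4 groups and 2 tables, so r can follow the group levels, and it can also follow a single library that stands apart. For Areg they were Slc20a1 (r = 0.960), Pir (0.953) and Nrarp (0.951). For Ereg they were Dusp5, an ERK phosphatase (0.990), Tpm3 (0.982) and Tmem63b (0.980). Dusp5 was at 11.4, 95.7 and 80.0 FPKM in untreated KrasT tumours and at 2.13, 1.18 and 1.18 FPKM after doxycycline. For Egfr they were Ly96 (0.972), Fxyd5 (0.961) and Fat1 (0.959), and Egfr and Ly96 were both lowest in untreated MycT replicate 2, at 0.489 and 1.55 FPKM. For Erbb3 they were Cdcp1 (0.988), Rhpn2 (0.979) and Paqr5 (0.971), and Cdcp1 shared its low value in untreated KrasT replicate 1, with 0.0720 FPKM against 19.3 and 21.8 FPKM.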

How the data were processed

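The authors deposited FPKM values, 1 column per library in a table for each model, and no read counts. The submitters' processing notes name cutadapt, TopHat and the mm9 build. How FPKM was computed, from which annotation and with or without strand, is not stated there. Of 23951 gene rows per table, 27 with date-like symbols were dropped. A gene was tested if it reached 1 FPKM in as many libraries as the smaller group has (3 KrasT, 2 MycT). The test was limma 3.58.1 (R 4.3.3) on log2(FPKM + 1), two-sided, using eBayes with a mean trend and Benjamini-Hochberg adjustment over all genes. The 2 models were compared by the interaction in 1 fit. Figures were drawn in Python 3.11.15 using matplotlib 3.10.9.

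All members are named. Of each pathway list, up to 4 called genes are named by size of change, or the 2 of smallest p. Members and lists were chosen with earlier results of these data known. Promoter windows came from RefSeq (GRCm38.p6) by symbol. Alternatives were a pseudocount of 0.1, no filter, 3 scalings, no trend, a joint fit and leaving out each library.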

Additional observations from a re-analysis of the deposited data

Results flagged for a closer look

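Ereg and Nrg1 were apart in opposite directions in the 2 models: every doxycycline library was below every untreated one in KrasT and above every untreated one in MycT. Both were too low in MycT for the main test of the difference. With every detected gene kept, the KrasT change minus the MycT change was -4.18 ± 0.77 (SE) for Ereg (limma adjusted p = 0.0620) and -0.81 ± 0.30 for Nrg1 (limma adjusted p = 0.226), so neither passed. In MycT, Ereg was at most 0.961 FPKM and Nrg1 at most 0.456 FPKM. Such separation was common: of all genes tested, 23% were lower without overlap in KrasT and 31.9% were higher without overlap in MycT. The share of genes with both was not counted.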

How the results depend on the processing

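No paired analysis was possible because the labels give each tumour its own number and no number links an untreated to a doxycycline tumour. The 4 KrasT member calls were made under every scaling, pseudocount and filter tried, and 3 in the joint fit, where Ereg was not tested; leaving out 1 library gave 1 to 6. All genes called in KrasT were 2121 (1074 higher, 1047 lower), 1172 under quantile normalization and 103 to 4384 when 1 library was left out; relative to a total without ribosomal protein genes and Rn45s, 2138 were higher and 286 lower. In MycT 5 genes were called, 0 without a filter, 1480 relative to that total, 2463 in the joint fit and 0 without any 1 library. For the difference 29 were called, 18 with a pseudocount of 0.1, 88 without a filter, 88 relative to that total and 0 to 1510 when 1 library was left out, with 0 to 3 members among them. MycT changes without a call turned sign when 1 library was left out, with ranges of -0.92 to 3.15 for Areg, -0.081 to 1.55 for Hbegf, -1.51 to 1.04 for Btc, -0.18 to 1.65 for Erbb2 and -0.83 to 1.17 for Erbb3; Btc also did relative to the reduced total (0.28) and Erbb3 under quantile normalization (-0.19). Leaving out 1 MycT library leaves a lone sample that is assumed to vary like the other group. The cause of these differences was not tested. Depth in reads is unknown, so values under 1 FPKM have no counting interval.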
